A study of Mus musculus with 12 samples.

Results

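*Tbx21* and *Eomes* encode the T-box transcription factors T-bet and Eomesodermin, and their chromatin was followed here in 3 subsets of thymic invariant natural killer T (iNKT) cells. A region was assigned to a gene when it overlapped the gene body, as annotated in GENCODE vM21 on the mouse assembly GRCm38.p6 (mm10), or the 10 kb on either side. This gave 12 regions for *Tbx21* (ENSMUSG00000001444.2, chr11:97098071-97115331, minus strand) and 7 for *Eomes* (ENSMUSG00000032446.14, chr9:118478212-118486132, plus strand), 19 of the 63309 regions in the table. Each region is 500 bp long and is named below by the distance of its middle from the gene's start, with positive values in the direction of transcription.

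The data are ATAC-seq, in which a transposase inserts adapters into open chromatin, from untreated C57BL/6 (wild-type) mice and Hivep3-/- mice backcrossed to C57BL/6, 8 to 9 weeks old. There were 2 libraries for each of iNKT1, iNKT2 and iNKT17 cells of each genotype, 12 in all. Cells were sorted as CD122+ ICOS- (iNKT1), CD122- ICOS+ Izumo1r+ CD138- (iNKT2) and CD122- ICOS+ Izumo1r- CD138+ (iNKT17) cells and mixed for transposition. They were then separated by ICOS and CD138 alone, because the dyes on CD122 and Izumo1r had lost their fluorescence. The sample titles number single mice while the protocol describes pooled thymi, so p-values measure the spread between these libraries, which may be partly technical.

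T-bet drives the type 1 program of lymphocytes, with interferon-γ as its signature cytokine, and is the factor that sets iNKT1 cells apart from GATA3-rich iNKT2 and interleukin-17-producing iNKT17 cells. In iNKT cells it is needed for the late steps of maturation, including the expression of CD122 and of NK cell receptors. Eomesodermin shares the DNA-binding T-box domain with T-bet and acts with it in NK cells and cytotoxic T cells, where either factor can activate overlapping targets.

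Sequences are shown for the region at each start site, for the *Tbx21* regions at +2.60 and +5.50 kb, which were among the most different between subsets, and for the *Tbx21* region at -8.48 kb, which was chosen after its values were seen because iNKT17 cells lay well above iNKT2 cells there. All were read from GRCm38.p6 as provided by RefSeq, on the strand of the gene. In the *Tbx21* promoter (chr11:97115302-97115581, minus strand) capitals mark the first 30 transcribed bases, in the +5.50 kb region (chr11:97109677-97109976, minus strand) an AP-1 motif and a Runt core, and in the -8.48 kb region (chr11:97123664-97123963, minus strand) a T-box core. The *Tbx21* promoter window also holds an ETS motif (chr11:97115569-97115575), which is not in capitals. The +2.60 kb region (chr11:97112584-97112883, minus strand), which holds a tandemly repeated stretch, and the *Eomes* region in the coding part of its first exon (chr9:118479073-118479372, plus strand) held none of the searched motifs in the part shown.
Tbx21 promoter: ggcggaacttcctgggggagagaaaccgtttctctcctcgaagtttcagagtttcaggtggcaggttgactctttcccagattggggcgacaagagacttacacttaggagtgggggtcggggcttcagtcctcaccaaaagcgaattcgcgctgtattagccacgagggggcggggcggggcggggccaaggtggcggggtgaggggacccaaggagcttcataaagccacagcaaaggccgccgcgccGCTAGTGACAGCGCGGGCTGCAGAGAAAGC
Tbx21 +2.60 kb: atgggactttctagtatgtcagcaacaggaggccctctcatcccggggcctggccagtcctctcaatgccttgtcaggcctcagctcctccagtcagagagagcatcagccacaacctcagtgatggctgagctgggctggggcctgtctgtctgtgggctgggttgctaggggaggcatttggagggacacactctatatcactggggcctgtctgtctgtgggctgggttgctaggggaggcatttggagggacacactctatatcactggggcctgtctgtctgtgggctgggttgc
Tbx21 +5.50 kb: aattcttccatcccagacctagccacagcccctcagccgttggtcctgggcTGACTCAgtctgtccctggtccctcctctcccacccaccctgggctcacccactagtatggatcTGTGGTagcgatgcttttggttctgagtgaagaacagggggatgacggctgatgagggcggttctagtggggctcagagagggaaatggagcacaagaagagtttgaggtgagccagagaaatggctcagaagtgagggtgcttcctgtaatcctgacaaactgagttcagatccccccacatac
Tbx21 -8.48 kb: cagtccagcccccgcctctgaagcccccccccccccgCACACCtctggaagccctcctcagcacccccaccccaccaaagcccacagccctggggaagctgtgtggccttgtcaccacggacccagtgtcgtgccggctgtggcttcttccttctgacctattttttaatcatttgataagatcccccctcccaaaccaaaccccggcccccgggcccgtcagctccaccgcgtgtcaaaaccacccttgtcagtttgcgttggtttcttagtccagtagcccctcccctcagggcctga
Eomes +1.01 kb: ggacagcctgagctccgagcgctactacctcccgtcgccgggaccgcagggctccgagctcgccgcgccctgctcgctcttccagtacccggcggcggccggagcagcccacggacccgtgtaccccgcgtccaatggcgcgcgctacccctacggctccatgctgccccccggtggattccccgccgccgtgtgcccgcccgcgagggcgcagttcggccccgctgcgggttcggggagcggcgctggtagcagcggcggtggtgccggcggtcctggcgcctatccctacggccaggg

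Motifs were searched on both strands of the 500 bp regions, and a match is a description of the letters and not a site of binding. The T-box motif AGGTGTGA was in 0 of 12 *Tbx21* and 0 of 7 *Eomes* regions, against 2.91% of all regions. Its core GGTGTG, added after the longer motif found no match, was in 4 and 4 regions (35% of all regions). The Runt motif AACCACA was in 1 and 0 regions (17.4% of all) and its core ACCACA, which lies within it and was also added later, in 5 and 1 (40.2%). The ETS motif AGGAAGT was in 2 and 1 (21.3%), the STAT motif TTCNNNGAA in 1 and 1 (13.4%), the AP-1 motif TGANTCA in 1 and 2 (15.9%) and the NF-κB motif in 0 and 0 (8.6%).

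Values are the deposited log2 insertions per kb. A region was tested when its mean was at least 5 insertions per kb in a compared group, and was called different at an adjusted p under 0.1 (limma, Benjamini-Hochberg over all tested regions) and at least 3-fold. Depth cannot be read from the normalized table. As a proxy, more deeply sequenced libraries show more different values among their lower-ranked regions. Below the median there were 73 to 491 such values per library, with the fewest in the Hivep3-/- iNKT17 and iNKT2 libraries (73 to 118). Promoter regions of the iNKT1 and iNKT17 markers were highest in their own subset in C57BL/6 cells, for example *Nkg7* at a mean of 7.26 in C57BL/6 iNKT1 against 3.75 in iNKT2 and 1.13 in iNKT17 cells, and *Il1r1* at 5.08 in iNKT17 against 1.93 in iNKT1 and 2.42 in iNKT2 cells. Of the 5 iNKT2 markers 3 were, while *Gata3* was at 6.63 in iNKT1 against 6.51 in iNKT2 cells and *Il17rb* at 5.11 against 4.93, and in Hivep3-/- cells *Il17rb* was highest in iNKT17 cells (4.88 against 4.50 in iNKT2). Of the markers of other cells, 1 of 7 of double-positive thymocytes, 1 of 5 of B cells, 2 of 5 of myeloid cells and 0 of 3 of NK cells had a promoter region at all. None of the 21 regions at *Hivep3* was called between genotypes in any subset, which checks nothing as the deleted part is not given in the sources used here.

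In C57BL/6 cells the *Tbx21* locus was most open in iNKT1 cells. Over the 12 regions the mean level was 37.6 and 39.6 insertions per kb in the iNKT1 libraries, 9.60 and 9.05 in iNKT2 and 6.25 and 6.45 in iNKT17. The 9 regions away from the promoter carried most of this, with a group mean 6.65 times higher in iNKT1 than in iNKT2 cells, against 1.62 times for the 3 regions within 1 kb of the start. Since each library is a bulk of cells, fewer cells with an open locus and less opening per cell cannot be told apart.

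**Figure D1:**
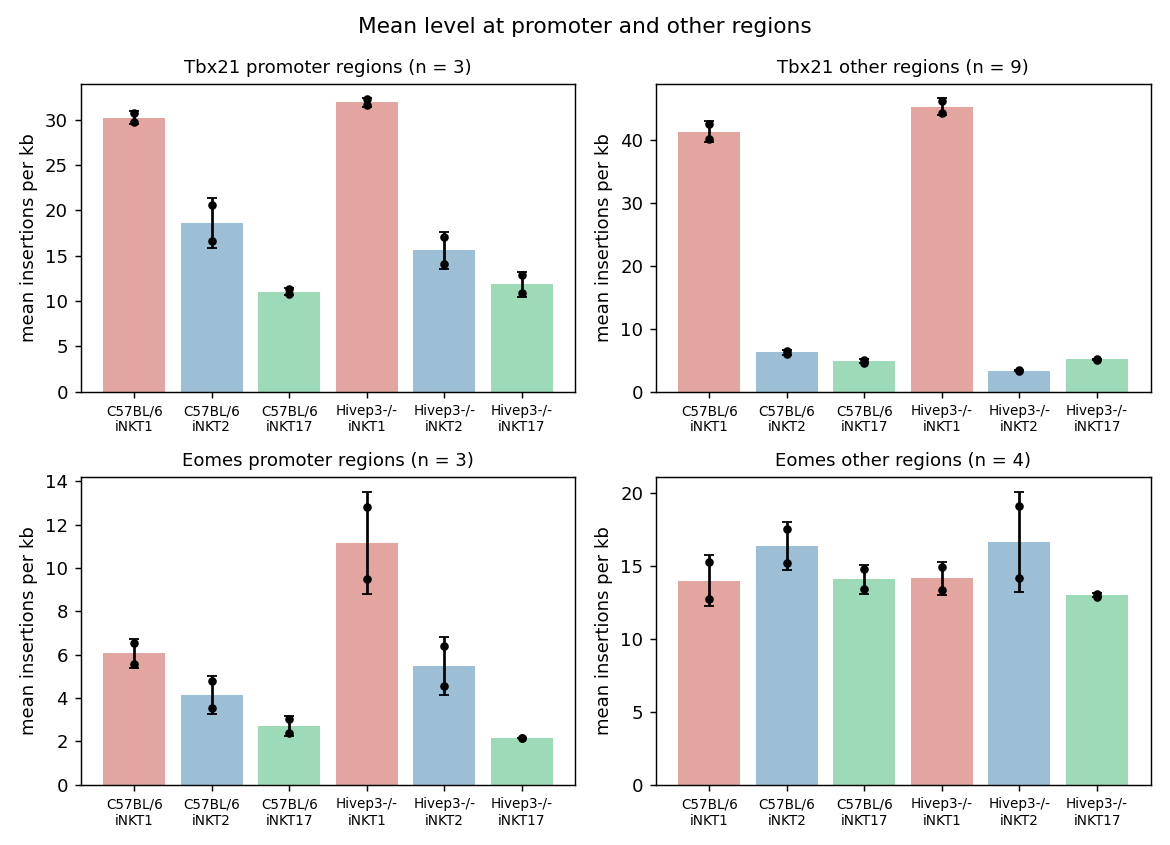
Mean insertions per kb over the promoter regions (left) and the other regions (right) of *Tbx21* (top) and *Eomes* (bottom), by subset and genotype. Bars are group means, error bars SD, points the 2 libraries. The *Tbx21* regions away from the promoter had a mean of 41.3 in C57BL/6 iNKT1, 6.22 in C57BL/6 iNKT2 and 3.34 in Hivep3-/- iNKT2 cells.

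The promoter itself was open in every library and graded between the subsets. The region over the start of *Tbx21*, which covers the beginning of the first exon and its upstream flank, had values of 5.15 and 5.20 in C57BL/6 iNKT1, 4.63 and 4.53 in iNKT2 and 3.80 and 3.61 in iNKT17 libraries. The Hivep3-/- libraries stood at 5.22 and 5.37, 4.18 and 4.38, and 3.42 and 4.03. Within each genotype the 3 subsets did not overlap. In C57BL/6 the difference was 0.60 between iNKT1 and iNKT2 (SE 0.18, limma adjusted p = 0.0159) and 0.87 between iNKT2 and iNKT17 (SE 0.18, limma adjusted p = 0.00151), both below 3-fold. In the order of the 6 group means, each pair of neighbours that differed by genotype alone missed the threshold, with limma adjusted p = 0.854 (iNKT1), 0.357 (iNKT2) and 0.983 (iNKT17). The means ran from 5.29 in Hivep3-/- iNKT1 over 5.17, 4.58, 4.28 and 3.72 to 3.71 in C57BL/6 iNKT17 cells.

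Away from the promoter the subsets differed far more. The intronic +2.60 kb region reached the highest level at the locus, with 6.59 and 6.72 in C57BL/6 iNKT1, 3.61 and 4.06 in iNKT2 and 0.49 and -0.61 in iNKT17 libraries. Its levels thus fell in 3 steps without overlap, and all 3 C57BL/6 comparisons were called. The differences were 2.82 between iNKT1 and iNKT2 (SE 0.36, limma adjusted p = 2.6e-05), 6.71 between iNKT1 and iNKT17 (SE 0.36, limma adjusted p = 7.87e-09) and 3.90 between iNKT2 and iNKT17 cells (SE 0.36, limma adjusted p = 1.58e-06). The +11.98 kb region showed the same 3 steps, with 5.64 and 5.40, 3.07 and 3.58, and 1.29 and 0.44.

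Other regions were open mainly in iNKT1 cells. The +5.50 kb intronic region had 4.28 and 4.40 in C57BL/6 iNKT1 libraries, -0.72 and -0.55 in iNKT2 and -1.38 and -2.29 in iNKT17. At +6.16 kb the values were 5.26 and 5.44, 1.06 and 0.17, and -2.41 and -2.29. At -2.99 kb they were 4.41 and 4.68, -0.04 and -0.67, and -2.41 and -1.15. Below 0 a region held under 1 insertion per kb, so these differences of 6.17, 7.70 and 6.33 between iNKT1 and iNKT17 cells rest on very low counts in iNKT17 cells. The +11.41 kb region, at 6.06 and 6.09 in iNKT1, kept 2.59 and 1.93 in iNKT2 and 0.18 and 0.35 in iNKT17 libraries.

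Counted over the locus, all 12 *Tbx21* regions were tested in both C57BL/6 comparisons with iNKT1 cells. Of these, 8 were called higher in iNKT1 than in iNKT2 cells, against 7.33% of all tested regions, and 7 higher than in iNKT17 cells, against 9.72%. None was called lower in either, the median differences being 2.29 and 3.18 where those of all tested regions were 0.01 and 0.02. At any fold, 12 of 12 passed adjusted p under 0.1 in both (27.3% and 30.2% of all tested regions, limma). These comparisons share their iNKT1 libraries. Between iNKT2 and iNKT17 cells 8 regions were tested and 2, at +2.60 and +11.98 kb, were called higher in iNKT2 (7.72% of all tested regions). The exonic +13.43 kb region stayed below 3-fold in every comparison, with 4.46 and 4.41 in C57BL/6 iNKT1, 3.40 and 3.70 in iNKT2 and 3.78 and 3.80 in iNKT17 libraries.

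**Figure D2:**
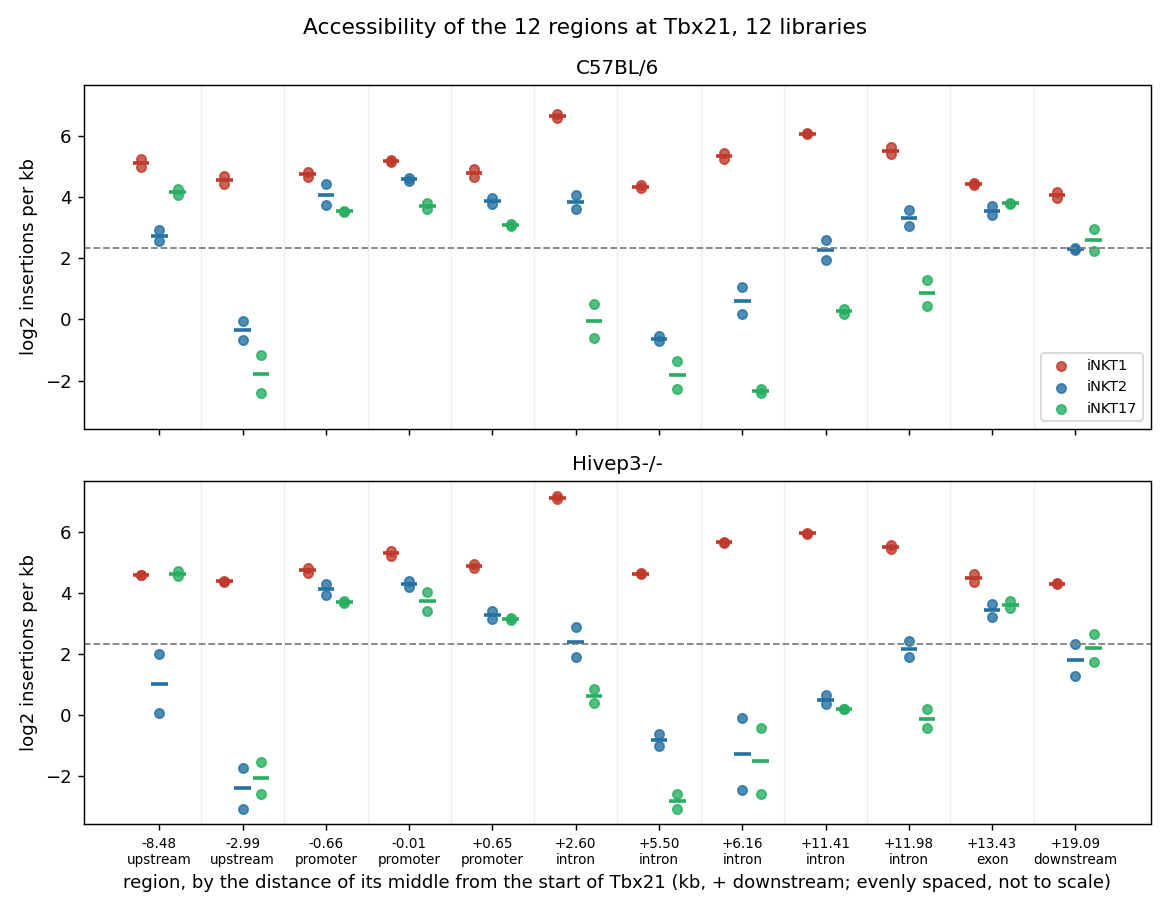
Log2 insertions per kb at the 12 *Tbx21* regions in C57BL/6 (top) and Hivep3-/- cells (bottom). Points are libraries, short lines group means, and the dashed line marks 5 insertions per kb. Regions stand in the order of their distance from the start and are evenly spaced, not to scale. The iNKT1 points lie highest at every region in C57BL/6 cells, and at -8.48 kb iNKT17 points come next.

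At the -8.48 kb region iNKT17 cells lay above iNKT2 cells. This order was also seen in the C57BL/6 means at +13.43 kb (3.79 against 3.55) and +19.09 kb (2.58 against 2.29), with smaller gaps. C57BL/6 libraries had 4.99 and 5.23 in iNKT1, 2.91 and 2.55 in iNKT2 and 4.08 and 4.28 in iNKT17. The iNKT2 libraries were thus lowest and did not overlap with either other subset. The region was called between iNKT1 and iNKT2 cells (2.38, SE 0.42, limma adjusted p = 0.000374), while the gap between iNKT2 and iNKT17 cells was -1.45 (SE 0.42, limma adjusted p = 0.0116) and fell short of 3-fold. Without the first C57BL/6 iNKT2 library that gap was -1.63 and was called. Over the 12 libraries its values correlated with those of the start-site region at r = 0.21, where the other 10 regions gave r of 0.68 to 0.97. These r describe 12 libraries in 6 groups that share the subset differences and the normalization.

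In Hivep3-/- cells the difference between iNKT1 cells and the other subsets was present again, except between iNKT1 and iNKT17 cells at -8.48 kb. The iNKT1 libraries there stood at 4.58 and 4.58 and the iNKT17 libraries at 4.54 and 4.71 (difference -0.04, SE 0.42, limma adjusted p = 0.943). Of the 12 *Tbx21* regions, 9 were called higher in iNKT1 than in iNKT2 cells (8.77% of all tested regions) and 8 higher than in iNKT17 cells (9.48%). The +2.60 kb region stood at 7.06 and 7.16 in the iNKT1 libraries, 2.89 and 1.90 in iNKT2 and 0.87 and 0.40 in iNKT17. The difference between iNKT1 and iNKT2 cells was 4.71 there (SE 0.36, limma adjusted p = 2.43e-07). Between iNKT2 and iNKT17 cells 6 regions were tested, of which the +2.60 kb region was called higher in iNKT2 cells (7.33% of all tested regions) and the -8.48 kb region lower (8.25%). The first of these was 1.76 (SE 0.36, limma adjusted p = 0.00112) but 1.53, below 3-fold, without the second Hivep3-/- iNKT17 library, and the other was -3.59 (SE 0.42, limma adjusted p = 1.28e-05).

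Between the genotypes, iNKT1 and iNKT17 cells gave no called region at *Tbx21*. In iNKT1 cells 0 of 12 tested regions were called, where 1.15% of all tested regions were, and 0 had an unadjusted p under 0.05 in limma. The differences ranged from -0.53 to 0.45. At +2.60 kb the difference was 0.45 with a 95% interval of -0.32 to 1.23, and at the start-site region it was 0.12 with an interval of -0.28 to 0.52. In iNKT17 cells 0 of 6 tested regions were called (0.271% of all) and 0 had an unadjusted p under 0.05 in limma. The regions not tested there were under 5 insertions per kb in both genotypes. Among them the +11.98 kb region went from 1.29 and 0.44 to -0.41 and 0.19, a difference of -0.97 (SE 0.32). The change in iNKT2 minus that in iNKT17 cells was -0.18 at this region (SE 0.45, limma adjusted p = 0.905). Over all 12 regions the iNKT17 group mean was lower in Hivep3-/- cells at 6 and higher at 6.

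In iNKT2 cells the *Tbx21* regions away from the promoter were on average less open in Hivep3-/- mice, while the mean promoter levels overlapped between genotypes. The mean level of the 9 regions away from the promoter was 5.93 and 6.51 insertions per kb in the C57BL/6 and 3.45 and 3.24 in the Hivep3-/- libraries, a ratio of 0.537, and that of the 3 promoter regions was 20.6 and 16.7 against 14.1 and 17.0. The overlap came from the -0.66 kb region, at log2 values of 4.42 and 3.74 against 3.94 and 4.29. Both Hivep3-/- libraries were lower at the start (4.63 and 4.53 against 4.18 and 4.38) and at +0.65 kb (3.97 and 3.76 against 3.14 and 3.40). The group mean was lower in Hivep3-/- cells at 11 of the 12 regions, with a median difference of -0.87, where 49.5% of all regions of the table were lower. Both Hivep3-/- libraries lay below both C57BL/6 libraries at 8 of the 12, against 25.6% of all regions. In iNKT1 cells the same held for 3 of the 12 (28.3% of all) and in iNKT17 cells for 3 of the 12 (22.3%). Regions of a locus come from the same libraries and are not independent, so these counts are descriptions and not tests.

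Under the test, 7 of the 12 regions reached the level to be tested and 1 was called lower, against 1.2% of all tested regions. This was the -8.48 kb region, with 2.91 and 2.55 in C57BL/6 and 0.06 and 2.00 in Hivep3-/- iNKT2 libraries, a difference of -1.70 (SE 0.42, limma adjusted p = 0.0206). The Hivep3-/- libraries are themselves 1.94 apart there. Without the first of them the difference was -0.73 (limma adjusted p = 0.0663), and without the first C57BL/6 iNKT2 library it was -1.52 (limma adjusted p = 0.136), neither of which was called. In these same 2 settings the +2.60 kb region was called lower instead, at -1.94 (limma adjusted p = 0.0137) and -1.67 (limma adjusted p = 0.057).

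At any fold, 4 of the 7 tested regions were lower at adjusted p under 0.1, against 8.16% of all tested regions. Beside the -8.48 kb region these were the regions at +2.60 kb (-1.44, SE 0.36, limma adjusted p = 0.0214), at +11.98 kb (-1.16, SE 0.32, limma adjusted p = 0.0347) and at +0.65 kb in the first exon (-0.59, SE 0.17, limma adjusted p = 0.0433). The +2.60 kb region went from 3.61 and 4.06 to 2.89 and 1.90, and the +11.98 kb region from 3.07 and 3.58 to 2.44 and 1.90. Without the second Hivep3-/- iNKT2 library they were at -0.95 (limma adjusted p = 0.162) and -0.89 (limma adjusted p = 0.186), and without the second C57BL/6 iNKT2 library at -1.21 (limma adjusted p = 0.158) and -0.90 (limma adjusted p = 0.238). The +0.65 kb region missed the threshold without the first library of either genotype, at -0.49 (limma adjusted p = 0.236) and -0.46 (limma adjusted p = 0.207).

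The other 5 regions were under 5 insertions per kb in both genotypes of iNKT2 cells. Of these the +11.41 kb region had 2.59 and 1.93 in C57BL/6 and 0.66 and 0.35 in Hivep3-/- libraries, and the -2.99 kb region went from -0.04 and -0.67 to -1.72 and -3.06. With no filter on low values both would be called, at -1.76 (limma adjusted p = 0.00139) and -2.03 (limma adjusted p = 0.0534). The 3 others, at +5.50, +6.16 and +19.09 kb, were not called in that setting either.

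**Figure D3:**
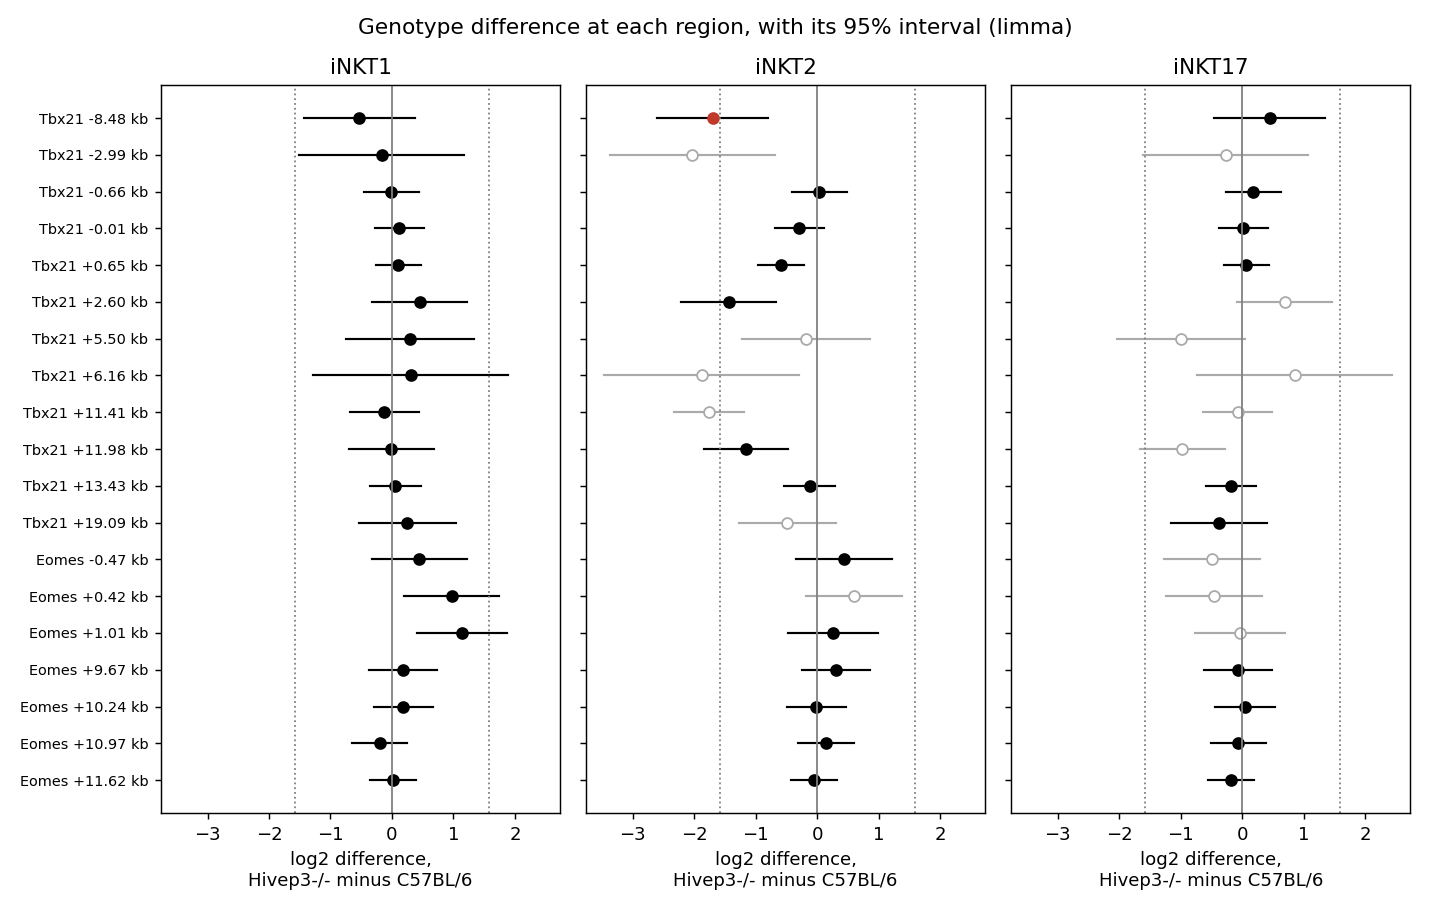
Difference between Hivep3-/- and C57BL/6 cells (log2) at the 19 regions in each subset, with 95% intervals from limma. Black points are tested regions, open grey points are below 5 insertions per kb in both genotypes, and the red point is the called region. Dotted lines mark 3-fold. In iNKT2 cells 11 of the 12 *Tbx21* points lie left of 0.

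Several measures moved with genotype in the iNKT2 libraries, and their part in these differences was not tested. The count of different values below the median was 219 and 159 in the C57BL/6 and 91 and 118 in the Hivep3-/- libraries. Summed over the 6 of 6 iNKT17 markers with a promoter region, the level was 56.0 to 64.2 insertions per kb against 34.6 to 39.4, and over the 4 of 4 iNKT1 markers 237 to 243 against 208 to 226.5, of which *Cxcr3*, *Klrb1c* and *Nkg7* are also type 1 genes below. The promoter of *Arpp21*, the 1 of 7 double-positive thymocyte markers with a promoter region, was at 15.8 to 16.9 against 4.25 to 6.12.

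Whether the genotype change differed between subsets was tested directly. Between iNKT1 and iNKT2 cells 2 of 12 *Tbx21* regions were called with a higher value in iNKT1 (2.06% of all tested regions), at +11.41 kb (1.63, SE 0.37, limma adjusted p = 0.0202) and +2.60 kb (1.89, SE 0.51, limma adjusted p = 0.0424). Between iNKT2 and iNKT17 cells 2 of 8 were called lower (0.685%), at +2.60 kb (-2.13, SE 0.51, limma adjusted p = 0.0586) and -8.48 kb (-2.14, SE 0.59, limma adjusted p = 0.0968). Between iNKT1 and iNKT17 cells 0 of 12 were called (1.42% of all), and 0 had an unadjusted p under 0.05 in limma. Leaving out 1 library ended each of these calls in several cases. The +11.41 kb call was lost without the first C57BL/6 iNKT2, the first Hivep3-/- iNKT1 or the second Hivep3-/- iNKT2 library (1.30 to 1.61). For iNKT1 against iNKT2 the +2.60 kb call was lost without the first C57BL/6 iNKT1, the second C57BL/6 iNKT2, either Hivep3-/- iNKT1 or the second Hivep3-/- iNKT2 library (1.40 to 1.94). For iNKT2 against iNKT17 it was lost without either C57BL/6 iNKT2, the second C57BL/6 iNKT17, the second Hivep3-/- iNKT2 or the first Hivep3-/- iNKT17 library (-2.36 to -1.58). The -8.48 kb call was lost without any 1 of the libraries other than the second Hivep3-/- iNKT2 library (-2.33 to -1.18, limma adjusted p = 0.0793 to 0.25).

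*Eomes* was much less open than *Tbx21* in these cells. Its 3 regions within 1 kb of a start site averaged 5.58 and 6.53 insertions per kb in C57BL/6 iNKT1, 4.77 and 3.54 in iNKT2 and 3.05 and 2.40 in iNKT17 libraries, where those of *Tbx21* averaged 29.7 and 30.7, 20.6 and 16.7, and 11.3 and 10.8. The other 4 regions lie downstream of the gene, at +9.67 to +11.62 kb. Of them 3 lie in *Gm33460*, a long noncoding RNA gene on the opposite strand, and the last beside its start, so they cannot be assigned to *Eomes* from position alone.

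The *Eomes* promoter regions showed the same order of subsets as *Tbx21*, with smaller steps. The +0.42 kb region, in the first exon, had 2.33 and 2.61 in C57BL/6 iNKT1, 1.55 and 1.57 in iNKT2 and 1.56 and 0.55 in iNKT17 libraries. The 3 promoter regions were higher in iNKT1 than in iNKT17 cells at adjusted p under 0.1, with differences of 1.21, 1.41 and 1.00 from the upstream to the downstream one (SE 0.36, 0.36 and 0.34, limma adjusted p = 0.0118, 0.00454 and 0.0237), all below 3-fold. Thus 0 of 7 regions were called in the C57BL/6 comparison of iNKT1 with iNKT17 cells (20.5% of all tested regions in either direction), although 3 had an unadjusted p under 0.05 in limma. Leaving out the first C57BL/6 iNKT17 library brought the first and the second above 3-fold (1.62 and 1.92). In the comparisons of iNKT1 with iNKT2 and of iNKT2 with iNKT17 cells 0 of 7 and 0 of 5 tested regions were called (16% and 16.2% of all in either direction), with 3 and 1 at an unadjusted p under 0.05 in limma.

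In Hivep3-/- cells the 3 promoter regions were called higher in iNKT1 than in iNKT17 cells (9.48% of all tested regions), by 2.15, 2.84 and 2.17 (SE 0.36, 0.36 and 0.34, limma adjusted p = 0.000207, 1.9e-05 and 0.00011). The test of the genotype change between these subsets did not call them (0.94, 1.42 and 1.18, limma adjusted p = 0.446, 0.205 and 0.273). The +1.01 kb region, in the coding part of the first exon, had 3.40 and 4.10 in iNKT1, 2.39 and 3.03 in iNKT2 and 1.50 and 1.66 in iNKT17 libraries. In C57BL/6 it had 2.30 and 2.92, 2.61 and 2.28, and 1.35 and 1.88. In the order of group means at this region Hivep3-/- iNKT1 cells (3.75) were followed by Hivep3-/- iNKT2 (2.71), C57BL/6 iNKT1 (2.61) and iNKT2 (2.45, with overlapping libraries in these 3) and by C57BL/6 (1.61) and Hivep3-/- iNKT17 cells (1.58). The genotypes did not overlap in iNKT1 cells, and the difference was 1.14 (SE 0.34, limma adjusted p = 0.0662), which is 2.21-fold and below the threshold of 3-fold. Without the first C57BL/6 iNKT1 library it was 0.83 (limma adjusted p = 0.49), and without the second Hivep3-/- iNKT1 library 0.79 (limma adjusted p = 0.568).

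Between genotypes 0 of 7 *Eomes* regions were called in iNKT1 (1.15% of all), 0 of 6 tested in iNKT2 (1.68%) and 0 of 4 tested in iNKT17 cells (0.271%). Of these, 2, 0 and 0 had an unadjusted p under 0.05 in limma. At any fold 1 of 7 was higher in iNKT1 cells, against 5.49% of all tested regions. No test of the genotype change between subsets called an *Eomes* region, where 3.06%, 1.42% and 1.02% of all tested regions were called in either direction, and 0, 2 and 0 *Eomes* regions had an unadjusted p under 0.05 in limma for iNKT1 against iNKT2, iNKT1 against iNKT17 and iNKT2 against iNKT17 cells. With the second C57BL/6 iNKT17 library left out, the +0.42 kb region was called between iNKT1 and iNKT17 cells (1.93, limma adjusted p = 0.0929).

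The 4 downstream regions did not share 1 pattern. The +9.67 kb region was higher in iNKT1 than in iNKT2 cells of C57BL/6 mice (0.71, SE 0.26, limma adjusted p = 0.0349), and the +10.24 kb region had means of 3.18 (iNKT1), 2.86 (iNKT2) and 2.83 (iNKT17). Over the 12 libraries their values correlated with those of the +1.01 kb region at r = 0.55 and 0.48. The +11.62 kb region was the most open one near *Eomes*, with 4.80 and 4.57 in C57BL/6 iNKT1, 5.52 and 5.13 in iNKT2 and 5.08 and 4.97 in iNKT17 libraries, so that iNKT1 cells were lowest. It was 0.64 lower in iNKT1 than in iNKT2 cells on the log2 scale (difference -0.64, SE 0.17, limma adjusted p = 0.00794). The +10.97 kb region varied between 3.25 and 4.09 over the 12 libraries with no called difference. Its values correlated with those of the +1.01 kb region at r = 0.14 over the 12 libraries, and those of the +11.62 kb region at r = -0.28.

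**Figure D4:**
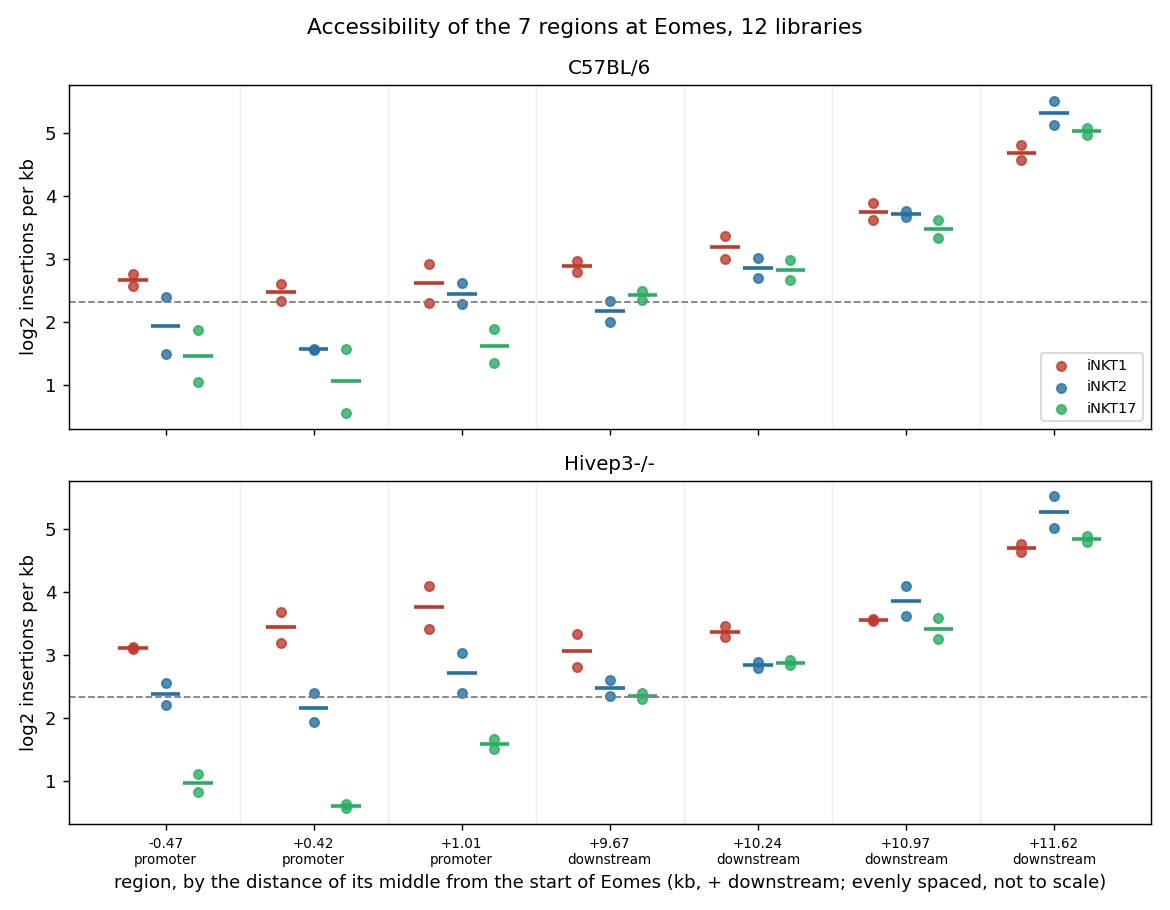
Log2 insertions per kb at the 7 *Eomes* regions in C57BL/6 (top) and Hivep3-/- cells (bottom), with libraries as points, group means as short lines and 5 insertions per kb as the dashed line. Regions are ordered by distance from the start and evenly spaced, not to scale. At +1.01 kb the Hivep3-/- iNKT1 points are at 3.40 and 4.10, and at +11.62 kb the C57BL/6 iNKT2 points are at 5.52 and 5.13.

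The start-site regions of *Tbx21* and *Eomes* correlated at r = 0.83 over the 12 libraries. Among 12948 genes with a promoter region, those most like *Tbx21* were *Tgfa*, a growth factor (r = 0.98), *Rcn3* (r = 0.98), *Ak8* and *Spaca9*, which share 1 region (r = 0.98), and *Spi1*, which encodes PU.1 (r = 0.98). *Tgfa* was at means of 4.76, 1.71 and -0.99 in C57BL/6 iNKT1, iNKT2 and iNKT17 cells, a far wider range than *Spi1* at 5.20, 4.81 and 4.18. Those most like *Eomes* were *Spry2*, an inhibitor of receptor signalling (r = 0.92), *Sowahb* (r = 0.92), *Sema6d* (r = 0.91), *Cilp2* (r = 0.90) and *Cdc14a* (r = 0.89). These r describe 12 libraries that share the subset differences.

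For each gene next to the loci the most open promoter region was tested, and none of these 4 was called. The promoter region of *Tbkbp1*, a gene whose nearest end lies 20.8 kb from *Tbx21*, was higher in iNKT1 than in iNKT17 cells of C57BL/6 mice by 1.54 (SE 0.20, limma adjusted p = 1.7e-05) and higher in iNKT2 than in iNKT17 cells by 1.49 (SE 0.20, limma adjusted p = 3.28e-05), with 0.05 between iNKT1 and iNKT2 cells (limma adjusted p = 0.848). In iNKT2 cells its genotype difference was -0.44 (SE 0.20, limma adjusted p = 0.175). Regions elsewhere in these genes, named after their values were seen, were less even. One in an exon of *Tbkbp1* had C57BL/6 means of 5.42 (iNKT1), 3.33 (iNKT2) and 1.78 (iNKT17), and one in an exon of *Golga4*, downstream of *Eomes*, had 4.68, 2.18 and -0.11.

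Genes of the type 1 program, many of them known T-bet targets, were open in the same subset. Of 20 such genes, 18 had a region called higher in iNKT1 than in iNKT2 cells of C57BL/6 mice and 19 one called higher than in iNKT17 cells. A region called lower was found at 1 and 3 of the genes. Counted per gene, 81 of 135 tested regions were higher than in iNKT2 cells (60%), against 7.33% of all tested regions. For iNKT17 cells these were 79 of 137 (57.7%), against 9.72%. Of the 20 promoter regions of these genes 12 and 11 were called higher, where 0.987% and 1.46% of all promoter regions were, with median differences of 1.98 and 3.52. The largest against iNKT2 cells were at the chemokine gene *Ccl4* (6.52, SE 1.12, limma adjusted p = 0.000303), the receptor gene *Klrk1* (5.90, SE 0.32, limma adjusted p = 3.6e-08), *Ccl3* (5.06, SE 0.72, limma adjusted p = 6.67e-05) and the granzyme gene *Gzmb* (4.03, SE 0.28, limma adjusted p = 2.03e-07).

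In iNKT2 cells 6 of the 20 genes had a region called lower in Hivep3-/- than in C57BL/6 mice and 0 one called higher. These 6 were *Ifng*, *Cxcr3*, *Nkg7*, *Klrb1c*, *Il12rb2* and *Hopx*, with 7 of 77 tested regions (9.09%, counted per gene), against 1.2% of all tested regions. A gene with more regions has more chances to hold a called one, and the share over all genes was not taken. The promoter region of *Klrb1c* itself had a higher mean in Hivep3-/- (3.004) than in C57BL/6 iNKT2 cells (2.485). Of 14 tested promoters 2 were called lower, where 0.15% of all tested promoter regions were. They were those of the cytotoxic granule gene *Nkg7* (-2.29, SE 0.25, limma adjusted p = 0.000197) and of the interferon-γ gene *Ifng* (-2.08, SE 0.24, limma adjusted p = 0.000285). The corresponding counts were 0 of 134 tested regions in iNKT1 and 0 of 64 in iNKT17 cells (1.15% and 0.271% of all in either direction). Of these regions 8 and 15 had an unadjusted p under 0.05 in limma.

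Promoter regions of 11 regulators of T-bet expression or partners of T-bet were tested. In C57BL/6 cells 1 of 11, that of *Stat4*, which relays interleukin-12 signals, was called higher in iNKT1 than in iNKT2 cells (2.37, SE 0.12, limma adjusted p = 1.94e-08). This share stood against 0.987% of all tested promoter regions. The *Stat4* promoter was lower in iNKT2 than in iNKT17 cells (-1.78, SE 0.12, limma adjusted p = 9.68e-08). Counted per gene, 28 of 163 tested regions were called higher in iNKT1 than in iNKT2 cells (17.2%, against 7.33% of all) and 4 lower. For iNKT1 against iNKT17 cells 27 of 170 were higher (15.9%, against 9.72% of all) and 15 lower. Between genotypes 1 of 145 tested regions was called lower, at *Runx1*, and 1 higher, at *Ets1*, in iNKT2 cells (0.69% each, where 1.2% of all tested regions were called lower and 0.474% higher). In iNKT1 and iNKT17 cells 0 of 158 and 0 of 151 were called (1.15% and 0.271% of all), with 38 and 37 at an unadjusted p under 0.05 in limma. Of 9 factors of the other fates, none had a promoter region called between genotypes in any subset, where 8 (iNKT1), 8 (iNKT2) and 9 (iNKT17) were tested. Of all tested promoter regions 0.196% were called higher and 0.0089% lower in iNKT1, and 0.0528% and 0.15% in iNKT2 cells. In iNKT17 cells these were 0.00882% and 0.0264%, so the absence of calls at so few promoters is near the share of all. *Zbtb16*, which encodes PLZF, had 6 of 68 tested regions called lower in iNKT1 cells, against 0.264% of all tested regions. Over the 9 factors 7 of 200 tested regions were called lower (3.5%) and 1 higher (0.5%) in iNKT1 cells, where 1.15% of all were called in either direction. In iNKT2 cells 2 of 226 were called lower and 2 higher (0.885% each), near the 1.2% and 0.474% of all tested regions.

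Of the 15 other T-box genes, 9 had a region and 6 a promoter region. The promoter of *Tbx15* was lower in C57BL/6 iNKT1 and iNKT2 than in iNKT17 cells, by differences of -1.83 (SE 0.30, limma adjusted p = 0.000134) and -2.22 (SE 0.30, limma adjusted p = 3.59e-05). None of the 15 had a region called between genotypes in iNKT1, iNKT2 or iNKT17 cells, where 24, 24 and 26 regions were tested. Of all tested regions 1.15%, 1.68% and 0.271% were called, so no call among so few regions is near the share of all. An unadjusted p under 0.05 in limma was found at 1, 3 and 1 of the regions.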

How the data were processed

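ATAC-seq was measured in 12 libraries, 2 for each of 3 iNKT subsets and 2 genotypes, and groups were taken from the sample titles. According to the methods, the authors trimmed reads with Trimmomatic 0.39, mapped them to mm10 and merged peaks of all replicates into 500 bp regions, and the deposited log2 values are transposase insertions per kb after normalization with voom. The libraries share their upper quantiles, and low values are coarser in shallower libraries. All columns were used. Coordinates are 1-based on GRCm38.p6.

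The 6 group means were fitted on the whole table with limma 3.58.1 in R 4.3.3, with a variance trend (6 residual and 7.17 prior degrees of freedom), so that all groups share 1 estimate of spread. Tests are two-sided. The fit was tested on simulated data. Python 3.11.15 with pandas 2.3.3, pysam 0.24.0 and matplotlib 3.10.9 was used for the rest. A promoter is within 1000 bp of a start site, and the promoter region of a gene is the one with the highest mean. Regions were named when they lay at a start site, were called between genotypes, or were among the 5 with the largest C57BL/6 subset differences per locus. Of each list, at most 4 called promoters were named per comparison. Members and lists were chosen with earlier results of these data known. Alternatives are described at the end. The columns hold no counts, so no counting intervals are given.

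The sample titles number the mice within each genotype, which is where pairing comes from. Deviations from group means correlated at 0.12 to 0.167 between subsets of 1 genotype, and at 0.113 to 0.171 between genotypes of 1 subset, which share only a number.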

Additional observations from a re-analysis of the deposited data

Results flagged for a closer look

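At 3 *Tbx21* regions the change between genotypes differed between subsets by limma's interaction test. At +11.41 kb the change in iNKT1 minus that in iNKT2 cells was 1.63, and at +2.60 kb it was 1.89. At +2.60 kb the change in iNKT2 minus that in iNKT17 cells was -2.13, and at -8.48 kb it was -2.14. In each case the iNKT2 cells had the lower change. Hivep3-/- iNKT2 libraries had fewer different values below the median (91 and 118) than C57BL/6 iNKT2 libraries (219 and 159), and the part of this in the differences was not tested.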

How the results depend on the processing

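Of 31 differences at named *Tbx21* and *Eomes* regions, 24 stayed called under every alternative that tested them and 0 changed direction. The 7 that were lost in some setting include each genotype and interaction call, and 2 libraries a group and low values limit these. The counts below cover both loci.

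A 2-fold threshold gave 12 called regions for C57BL/6 iNKT1 against iNKT17 (7 as reported), 4 for Hivep3-/- iNKT2 against iNKT17 (2), and 1 (0) and 3 (1) between genotypes in iNKT1 and iNKT2 cells. No filter on low values, and a filter of 5 on the mean of the 12 libraries, both gave 4, 4 and 3 for iNKT2 against iNKT17 in C57BL/6 (2) and in Hivep3-/- mice (2) and for the genotypes in iNKT2 cells (1). With 50 kb on either side the counts were 13 for C57BL/6 iNKT1 against iNKT17, 4 for C57BL/6 iNKT2 against iNKT17, 14 (9) and 18 (11) for Hivep3-/- iNKT1 against iNKT2 and iNKT17, and 2 between genotypes in iNKT2 cells. A pseudocount of 1 gave 0 between genotypes in iNKT2 cells, 1 for Hivep3-/- iNKT2 against iNKT17 and 1 for the genotype change in iNKT1 against iNKT2 (2). A pseudocount of 5 gave 0, 1 and 0 for these, 1 for C57BL/6 iNKT2 against iNKT17, 6 for Hivep3-/- iNKT1 against iNKT17 and 0 for the genotype change in iNKT2 against iNKT17 (2). Renewed quantile normalization gave 1, and no variance trend 1, for the genotype change in iNKT1 against iNKT2. No variance trend, and fitting only the compared groups, gave 0 for that in iNKT2 against iNKT17. The cause of each shift was not tested beyond what the setting itself changes.

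Leaving out 1 library at a time gave 6 to 9 calls for C57BL/6 iNKT1 against iNKT17, 8 to 8 against iNKT2, 2 to 3 for iNKT2 against iNKT17, 11 to 12, 8 to 9 and 1 to 3 for the same in Hivep3-/- mice, 0 to 0, 1 to 2 and 0 to 0 between genotypes in iNKT1, iNKT2 and iNKT17 cells, and 0 to 2, 0 to 1 and 0 to 1 for the genotype change in iNKT1 against iNKT2, iNKT1 against iNKT17 and iNKT2 against iNKT17. The count of 2 between genotypes in iNKT2 cells came without the second C57BL/6 iNKT2 library, where the +11.41 kb region was added, and a count of 1 was the +2.60 kb in place of the -8.48 kb region without the first iNKT2 library of either genotype. A group left with 1 library was assumed to vary like the others.

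With the replicate number as a block, or with the block within genotype, all 31 differences were called again and the counts were 8, 7 and 2 in C57BL/6, 9, 11 and 2 in Hivep3-/- mice, 0, 1 and 0 between genotypes and 2, 0 and 2 for the genotype change between subsets.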
